A study of Homo sapiens with 18 samples.

Results

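The genes described here are 10 regulators of the G1 phase of the cell cycle and of entry into S phase, chosen by symbol from a list: CCND2, CCND3, CDK4, CDK6, CCNE1, CDKN1A, CDKN1B, CDKN2C, RB1 and E2F1. All 10 were found among 16532 genes in the H929 table, among 58884 named entries in each of the 2 MM1S expression tables and among 20308 genes in the RNA immunoprecipitation (RIP) table. H929 and MM1S are established human multiple myeloma lines, labelled as plasma cells. In H929, 3 libraries labelled scramble (a control hairpin) stood against 3 labelled shRBM39 (a hairpin against RBM39), and in MM1S 2 scramble libraries against 2 shRBM39 libraries. A further 3 MM1S libraries from cells given the solvent DMSO stood against 3 from cells given indisulam, and 2 RIP libraries from MM1S used an RBM39 antibody or control IgG. RBM39 binds RNA and acts in the splicing of pre-mRNA. Indisulam, an aryl sulfonamide drug, directs the RBM39 protein to a ubiquitin ligase for degradation. The labels give no dose, time, hairpin sequence or number of hairpins, and do not say whether replicates came from separate cultures. The p-values then cover no more than the spread between these libraries, which may be technical.

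D-type cyclins bind the kinases CDK4 and CDK6 in G1, and these complexes phosphorylate the RB1 protein. Unphosphorylated RB1 holds back E2F transcription factors, which once released switch on CCNE1 and the genes of DNA replication. The CDK inhibitors set the threshold: the INK4 protein encoded by CDKN2C blocks CDK4 and CDK6, while p21 (CDKN1A) and p27 (CDKN1B) bind cyclin-CDK complexes more widely. In myeloma nearly all tumours are known to express a D cyclin at a high level. MM1S is known for a translocation that activates MAF, a transcription factor that acts on CCND2.

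RBM39 itself was checked first. In H929 its mean was 4.50 FPKM under the label scramble and 37.5 FPKM under the label shRBM39, 2.81 higher on the log2 scale (limma adjusted p = 7.68e-13), which is opposite to what the labels name. The H929 groups are therefore given as labelled, with values called higher or lower, and are not read as effects of a knockdown. In MM1S, RBM39 fell from 190.4 to 58.5 TPM with shRBM39 (limma adjusted p = 0.0121), and its means were 187.6 TPM for DMSO and 197.8 TPM for indisulam (limma adjusted p = 0.828). Replicate libraries correlated at 0.962 to 0.998 on the log2 scale, and indisulam replicate 3 stood apart, at 0.962 and 0.967 against 0.991 between the other 2 treated libraries. The 8 plasma cell markers were all at 1 or more in every group, and the B cell markers listed were all below 1. The summed level of the 8 plasma cell markers was 2598 to 2773 FPKM in H929 scramble and 3946 to 4184 FPKM in H929 shRBM39. It was 1694 to 1891 TPM in MM1S scramble, 2061 to 3034 TPM in MM1S shRBM39, 3585 to 3754 TPM in DMSO and 3020 to 3299 TPM with indisulam. Of the 3 T cell markers CD3E alone reached 1, and of the 4 myeloid markers CD68 alone. The summed T cell markers were 39.2 to 46.8 FPKM in H929 scramble against 15.5 to 18.3 FPKM in H929 shRBM39, and 4.37 to 5.64 TPM in MM1S scramble against 0.77 to 1.06 TPM in MM1S shRBM39. With indisulam they were 0.89 to 1.36 TPM, against 2.90 to 4.05 TPM in DMSO. The summed myeloid markers were 25.1 to 26.9 and 13.4 to 14.7 FPKM in the 2 H929 groups, 15.9 to 21.1 and 5.70 to 9.79 TPM in MM1S scramble and shRBM39, and 9.50 to 10.6 and 7.22 to 8.30 TPM in DMSO and indisulam. The fibroblast markers COL1A1 and COL1A2 summed to at most 2.38 TPM in MM1S. The part of these shifts in the results below was not tested. In bulk RNA, fewer cells in a given phase and less RNA per cell cannot be told apart.

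Differences are on the scale of log2(value + 1), and a gene was called at a limma adjusted p below 0.05, adjusted over all genes tested. In H929, 8 of the 10 genes were called, where 72.2% of the 10360 genes tested were called, so the count is close to the background. CCND2, CDKN2C and RB1 were higher in the libraries labelled shRBM39 (24.1% of all genes were called higher), and CCND3, CDK4, CDK6, CDKN1A and E2F1 were lower (48.1% of all genes). In MM1S with shRBM39, CDKN2C was too low to test, and 2 of the other 9 genes were called, CCND2 and RB1, both lower. Over all 14152 genes tested, 10.3% were called and 6.35% were called lower. None of the 9 tested was called higher by limma (3.97% of all genes were). At an unadjusted limma p below 0.05, 5 were lower and 0 higher. Over all 14152 genes, 4556 had an unadjusted limma p below 0.05, in either direction. With indisulam, 5 of the 9 genes tested were called, against 29.9% of 13445 genes. CDKN1A rose (8.47% of all genes were called higher), and CCND3, CDK4, CCNE1 and E2F1 fell (21.5% of all genes were called lower). The median log2 difference of the tested members was -0.11, -0.56 and -0.56 in the 3 comparisons, beside -0.13, -0.00 and -0.05 over all genes tested. The groups did not overlap for 8 of 10, 7 of 9 and 5 of 9 members, beside 74.7%, 62.4% and 47.3% of all genes.

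**Figure D1:**
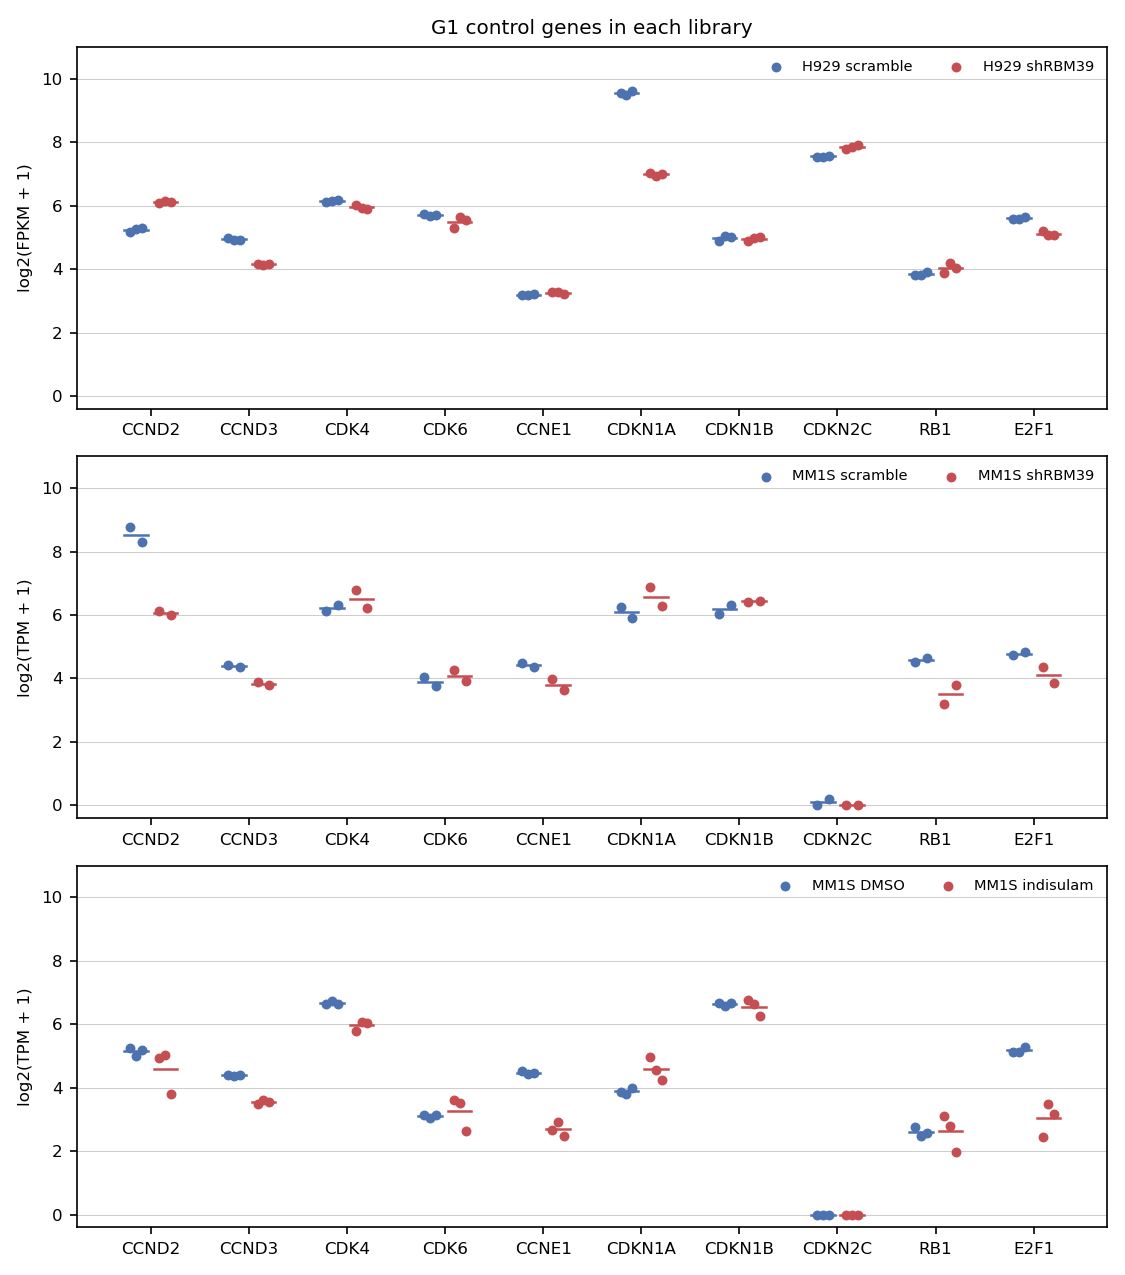
Level of each of the 10 genes in every library, as log2(FPKM + 1) for H929 (top) and log2(TPM + 1) for MM1S (middle and bottom). Each point is 1 library, blue for the control group and red for the other group, and bars are group means. The CDKN1A groups in H929 and the CCND2 groups in the MM1S knockdown are the farthest apart within their panels, and CDKN2C is high in H929 and at or near 0 in MM1S.

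The split between higher and lower calls depended on scaling and, with indisulam, on single libraries. In H929, 2498 of 7477 called genes (33.4%) were higher as deposited, and 3932 of 7244 (54.3%) after scaling each library to the same median. With indisulam the same step moved it from 1139 of 4024 genes (28.3%) to 2593 of 5552 (46.7%). Without indisulam replicate 3 it was 5391 of 9350 genes (57.7%), and without any 1 of the other 5 libraries 17.3 to 19.1% of 1849 to 2848 called genes were higher. For the MM1S knockdown, 0 genes passed limma's adjusted test without scramble replicate 1, without scramble replicate 2 or without shRBM39 replicate 2, though 2296, 2424 and 4605 genes had an unadjusted p below 0.05. Each of those fits left 1 library in a group, so the lost calls cannot tell weaker power from dependence on the library left out.

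CCND2, the D cyclin that MAF activates, was the member with the largest change in the MM1S knockdown. It was at 436.7 and 313.8 TPM in the scramble libraries and at 68.9 and 63.0 TPM in the shRBM39 libraries. The lowest scramble library was thus several times above the highest shRBM39 library, and CCND2 fell 5.69-fold in group means (log2 -2.47, SE 0.187, limma adjusted p = 0.0116). In H929 the order by label was opposite, as it was for RBM39. CCND2 was at 35.0, 37.0 and 38.0 FPKM in the libraries labelled scramble and at 66.6, 69.4 and 67.9 FPKM in those labelled shRBM39. All 3 libraries labelled shRBM39 lay above all 3 labelled scramble, a 1.85-fold difference (log2 0.87, SE 0.0454, limma adjusted p = 2.68e-09). With indisulam CCND2 was at 29.9, 31.8 and 12.95 TPM, against 37.5, 31.3 and 35.5 TPM in DMSO. These groups overlapped, and the log2 difference of -0.56 did not pass the test (95% interval -1.31 to 0.19, limma adjusted p = 0.224). Indisulam replicate 3 was the low library, and without it the difference was -0.16. The MM1S control groups were far apart in CCND2, with a scramble mean of 375.2 TPM, 10.8-fold the DMSO mean of 34.7 TPM. The shRBM39 mean of 65.9 TPM also lay above the DMSO mean. These tables were normalized separately. A gene on the other strand, CCND2-AS1, overlaps CCND2 in the RefSeq annotation, and whether strand was used in counting is not given in the sources used here.

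CCND3 encodes the other D cyclin expressed at a clear level in both lines. In H929 it was at 30.6, 29.0 and 29.1 FPKM in the libraries labelled scramble and at 16.8, 16.4 and 16.9 FPKM in those labelled shRBM39. The groups lay apart, with a 1.77-fold lower mean in the libraries labelled shRBM39 (log2 -0.79, SE 0.0483, limma adjusted p = 1.19e-08). CCND3 and CCND2 thus stood in opposite directions in H929. In MM1S with indisulam CCND3 fell 1.87-fold, from 20.4, 19.7 and 20.1 TPM in DMSO to 10.2, 11.2 and 10.8 TPM (log2 -0.85, SE 0.129, limma adjusted p = 0.00326). With shRBM39 in MM1S, values were 13.7 and 12.8 TPM, against 20.3 and 19.6 TPM with scramble. These groups did not overlap either, but the log2 difference of -0.56 did not pass the test (95% interval -0.92 to -0.20, limma adjusted p = 0.0658).

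CCND1, a D cyclin kept on the list of related genes, differed in level between the lines. It averaged 33.8 FPKM in the H929 libraries labelled scramble and 30.7 FPKM in those labelled shRBM39, and stayed at or below 3.78 TPM in all 10 MM1S libraries. The H929 difference, -0.13 on the log2 scale (limma adjusted p = 0.0131), equalled the shift of all genes in that table, and its sign turned after median scaling.

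CDK4 and CDK6 encode the kinases that D cyclins activate. With indisulam CDK4 fell 1.62-fold, from 98.0, 105.0 and 99.2 TPM in DMSO to 54.7, 66.3 and 65.1 TPM (log2 -0.70, SE 0.105, limma adjusted p = 0.00309), and the groups did not overlap. In H929 CDK4 was at 68.1, 70.1 and 71.3 FPKM in the libraries labelled scramble and at 64.5, 60.4 and 59.1 FPKM in those labelled shRBM39. That log2 difference of -0.19 (limma adjusted p = 0.00233) was -0.05 relative to the median of all genes, and after median scaling the call was lost (-0.02, limma adjusted p = 0.693). CDK4 in the MM1S knockdown was at 69.0 and 79.3 TPM with scramble and at 108.6 and 73.6 TPM with shRBM39, overlapping groups with a log2 difference of 0.27 (95% interval -0.27 to 0.81, limma adjusted p = 0.434). TSPAN31 overlaps CDK4 in the RefSeq annotation, and averaged 20.6 TPM with scramble, 42.5 TPM with shRBM39, 28.2 TPM in DMSO and 37.9 TPM with indisulam. Its part in the CDK4 values was not tested.

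CDK6 gave small differences that depended on single libraries. In H929 it was at 52.1, 50.0 and 50.7 FPKM in the libraries labelled scramble and at 37.95, 49.2 and 45.8 FPKM in those labelled shRBM39, lower by -0.20 on the log2 scale (SE 0.0743, limma adjusted p = 0.0254). The lowest value was that of shRBM39 replicate 1, and without it the difference was -0.10 (limma adjusted p = 0.0719). The call was also lost after median scaling (-0.04) and without scramble replicate 1 or 3. With indisulam CDK6 was at 11.2, 10.4 and 5.24 TPM, against 7.74, 7.19 and 7.80 TPM in DMSO. Of the treated libraries 2 lay above and 1 below all DMSO libraries (log2 0.15, limma adjusted p = 0.698), and without indisulam replicate 3 the difference of 0.46 passed (limma adjusted p = 0.00345). CDK6 in the MM1S knockdown was at 15.5 and 12.6 TPM with scramble and at 18.1 and 14.2 TPM with shRBM39, which overlap.

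CCNE1 encodes cyclin E1, the partner of CDK2 at the G1-S transition and itself an E2F target. With indisulam it fell 3.84-fold, from 21.9, 20.7 and 21.2 TPM in DMSO to 5.39, 6.63 and 4.59 TPM (log2 -1.78, SE 0.167, limma adjusted p = 5.24e-04). Every treated library lay far below the lowest DMSO library. CCNE1 in the MM1S knockdown was at 21.6 and 19.6 TPM with scramble and at 14.7 and 11.3 TPM with shRBM39. The 2 groups lay apart, but the log2 difference of -0.63 did not pass the test (95% interval -1.08 to -0.18, limma adjusted p = 0.0798). In H929 it was at 8.12, 8.01 and 8.30 FPKM in the libraries labelled scramble and at 8.78, 8.63 and 8.39 FPKM in those labelled shRBM39 (log2 0.07, limma adjusted p = 0.282). After median scaling that difference was 0.23 and passed (limma adjusted p = 0.00221).

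CDKN1A, which encodes the inhibitor p21, showed the largest member difference in H929. It was at 745, 716 and 782 FPKM in the libraries labelled scramble, a mean above that of 99.3% of expressed genes there. In those labelled shRBM39 it was at 129, 122 and 128 FPKM, 5.92-fold lower in group means (log2 -2.56, SE 0.0432, limma adjusted p = 1.96e-13). No other member came near this gap between groups in H929. With indisulam CDKN1A rose 1.72-fold, from 13.6, 13.0 and 14.8 TPM in DMSO to 30.5, 22.5 and 18.1 TPM (log2 0.71, SE 0.201, limma adjusted p = 0.0352). All 3 treated libraries lay above all 3 DMSO libraries, but the call was lost without any 1 of the 3 DMSO libraries, without indisulam replicate 1 or 2 (adjusted p 0.0799 to 0.13) and with a replicate block (0.0568). Without indisulam replicate 3 the log2 change was 0.88 and stayed called. CDKN1A in the MM1S knockdown was at 76.0 and 58.5 TPM with scramble and at 116.4 and 76.3 TPM with shRBM39. Those groups were separated only narrowly, and the log2 difference of 0.49 did not pass (95% interval -0.13 to 1.11, limma adjusted p = 0.235).

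CDKN1B, which encodes p27, passed the test in none of the 3 comparisons. In H929 it was at 28.8, 32.0 and 31.5 FPKM in the libraries labelled scramble and at 28.6, 30.3 and 31.3 FPKM in those labelled shRBM39 (log2 -0.03, 95% interval -0.15 to 0.09). In MM1S it was at 64.5 and 78.7 TPM with scramble and at 84.6 and 85.3 TPM with shRBM39 (log2 0.25, 95% interval -0.11 to 0.61). With indisulam it was at 107.5, 99.4 and 75.6 TPM, against 100.1, 94.9 and 100.8 TPM in DMSO (log2 -0.08, 95% interval -0.41 to 0.24). The H929 and indisulam groups overlapped, the sign in H929 and with indisulam turned under quantile normalization, and the intervals leave room for changes of up to 0.61 on the log2 scale.

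CDKN2C encodes p18, an inhibitor specific to CDK4 and CDK6. It was a high member in H929, at 185.4, 185.9 and 187.9 FPKM in the libraries labelled scramble and at 220.5, 228.3 and 240.2 FPKM in those labelled shRBM39. The groups lay apart, 1.23-fold higher in those labelled shRBM39 (log2 0.30, SE 0.0410, limma adjusted p = 2.13e-05). In MM1S it was listed at 0 in 9 of 10 libraries and at 0.15 TPM in scramble replicate 2. It was not tested there, and no fold is given.

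RB1 encodes the pocket protein that the D cyclin kinases inactivate. In the MM1S knockdown it fell from 21.8 and 24.3 TPM with scramble to 8.22 and 13.0 TPM with shRBM39, a 2.17-fold lower mean (log2 -1.08, SE 0.235, limma adjusted p = 0.0494). The groups lay apart, but this call, close to the threshold, was lost under median scaling, quantile normalization, a pseudocount of 0.1, a replicate block and without any 1 library (adjusted p 0.0538 to 0.318). In H929 RB1 was at 13.0, 13.2 and 14.1 FPKM in the libraries labelled scramble and at 13.7, 17.2 and 15.5 FPKM in those labelled shRBM39. These groups overlapped, although the difference of 0.18 passed (limma adjusted p = 0.0387), and the call was lost without scramble replicate 1 or 2 and without shRBM39 replicate 2 or 3. With indisulam RB1 was at 7.63, 5.99 and 2.95 TPM, against 5.81, 4.58 and 4.94 TPM in DMSO, with overlap and a log2 difference of 0.03 (95% interval -0.68 to 0.73).

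E2F1, the transcription factor that RB1 restrains, had the largest change of the members with indisulam. It fell from 33.8, 34.1 and 37.9 TPM in DMSO to 4.49, 10.2 and 8.11 TPM, 4.64-fold in group means (log2 -2.13, SE 0.262, limma adjusted p = 0.00144). Every treated library lay well below every DMSO library, and the call held without any 1 of the 6. In H929 E2F1 was at 46.9, 46.7 and 48.9 FPKM in the libraries labelled scramble and at 35.9, 32.9 and 32.5 FPKM in those labelled shRBM39, lower in all 3 (log2 -0.48, SE 0.0494, limma adjusted p = 1.47e-06). In the MM1S knockdown it was at 25.6 and 27.3 TPM with scramble and at 19.5 and 13.6 TPM with shRBM39. Those groups did not overlap, and the log2 difference of -0.66 did not pass the test (95% interval -1.17 to -0.16, limma adjusted p = 0.0929).

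**Figure D2:**
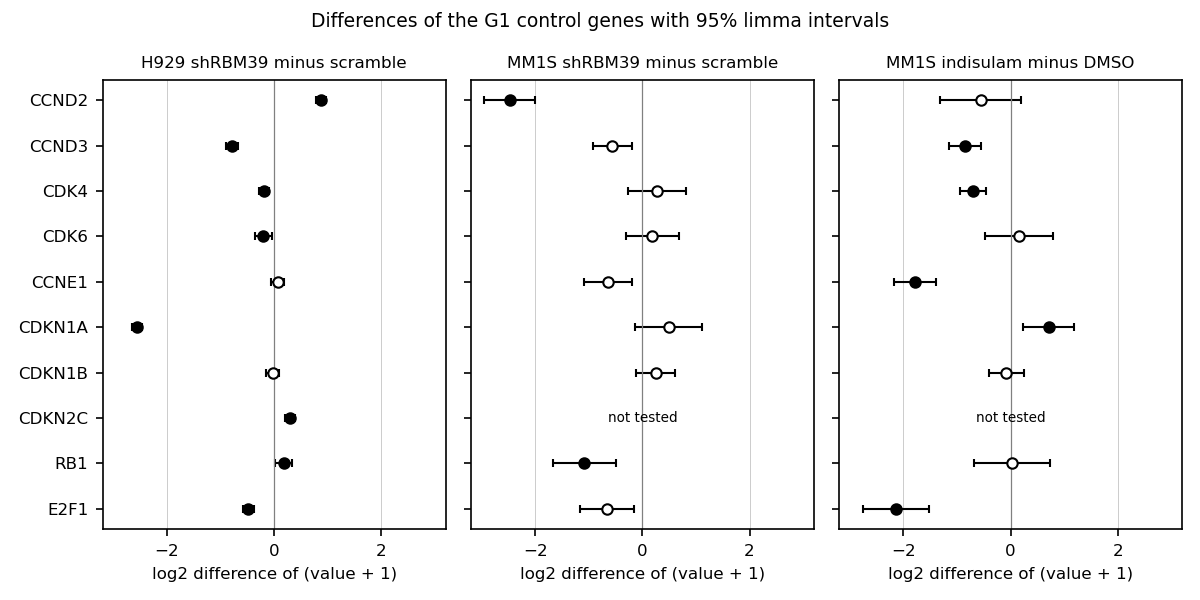
Log2 difference of each gene in the 3 comparisons, with 95% intervals from limma. Filled points passed the test and open points did not. CDKN1A in H929, CCND2 in the MM1S knockdown and E2F1 with indisulam lie farthest from 0, at -2.56, -2.47 and -2.13, and CCND2 has opposite signs in the H929 and MM1S shRBM39 panels.

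E2F1 and CCNE1 are both known to be switched on by E2F factors, and their promoters are shown because both genes fell with indisulam. The sequences come from RefSeq (GRCh38.p14) and give the 250 bases before the transcription start. Capitals mark matches, on either strand, to the E2F motif forms TTTCCCGC, TTTGGCGC, TTTCGCGC and TTTGCCGC, of which no 2 matches here overlap. The E2F1 window is chr20:33686386-33686635 on the minus strand, and the CCNE1 window is chr19:29811741-29811990 on the plus strand.
E2F1: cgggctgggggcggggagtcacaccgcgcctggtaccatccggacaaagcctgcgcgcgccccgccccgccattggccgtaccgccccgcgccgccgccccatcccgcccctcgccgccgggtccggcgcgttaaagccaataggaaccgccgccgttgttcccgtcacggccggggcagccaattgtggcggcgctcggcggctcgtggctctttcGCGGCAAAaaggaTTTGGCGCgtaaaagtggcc
CCNE1: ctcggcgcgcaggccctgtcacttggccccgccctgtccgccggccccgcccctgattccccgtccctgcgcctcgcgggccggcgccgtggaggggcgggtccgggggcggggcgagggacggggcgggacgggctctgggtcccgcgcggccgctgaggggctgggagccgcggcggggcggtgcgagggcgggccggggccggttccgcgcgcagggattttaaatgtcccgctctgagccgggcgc
The E2F1 window holds 2 matches, GCGGCAAA and TTTGGCGC, close to the start, and the CCNE1 window holds none of these 4 forms. Of 35116 promoter windows in the RefSeq table, 2.79% hold at least 1 match and 0.122% hold 2 or more. Windows were found for 9 of the 10 genes, and among them only those of E2F1 held a match. The RB1 window in that table lies inside the gene, so the promoter at its first start was not searched. On the list of E2F targets below, 6 of the 13 genes with a window (46.2%) had a match, beside 3.4% of 27305 genes. That list was made up of E2F targets, so a higher share there is not a result of these data. A match describes the letters only.

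The list of 15 E2F targets of S phase entry holds replication licensing, nucleotide synthesis and fork genes. The shares of all genes called, given above for each comparison, are the background for the counts of this and the later lists. With indisulam all 15 fell, by limma's adjusted test, with a median log2 difference of -2.15 beside -0.05 over all genes tested. RRM2, a subunit of ribonucleotide reductase, went from 158.9 to 13.2 TPM (log2 -3.50, SE 0.123, limma adjusted p = 2.56e-05). TYMS, thymidylate synthase, went from 214.2 to 18.9 TPM, and TK1, thymidine kinase, from 131.9 to 23.2 TPM. All 15 stayed called under each alternative run, including without indisulam replicate 3. With shRBM39 in MM1S all 15 were also lower and called, with a median of -1.50 beside -0.00 over all genes. MCM3, a subunit of the replicative helicase, fell from 154.8 to 48.3 TPM, CCNA2, cyclin A2, from 87.5 to 29.6 TPM, and CDC45, a helicase activator, from 33.7 to 11.3 TPM. With a replicate block 6 of the 15 were called, and 0 where a scramble library or shRBM39 replicate 2 was left out.

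By label, the same list went mostly the other way in H929. RBM39 itself did too, with log2 differences of 2.81 in H929 and -1.69 in the MM1S knockdown. Of the 15 genes, 9 were higher in the libraries labelled shRBM39, 2 were lower and 4 did not pass, with a median of 0.43 beside -0.13 over all genes. RRM2 averaged 28.3 FPKM in the libraries labelled scramble and 108.8 FPKM in those labelled shRBM39, the replication licensing gene CDC6 18.4 and 33.6 FPKM, and TYMS 49.4 and 76.9 FPKM. E2F1 itself was lower in the same libraries. After median scaling 12 were higher and 0 lower.

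**Figure D3:**
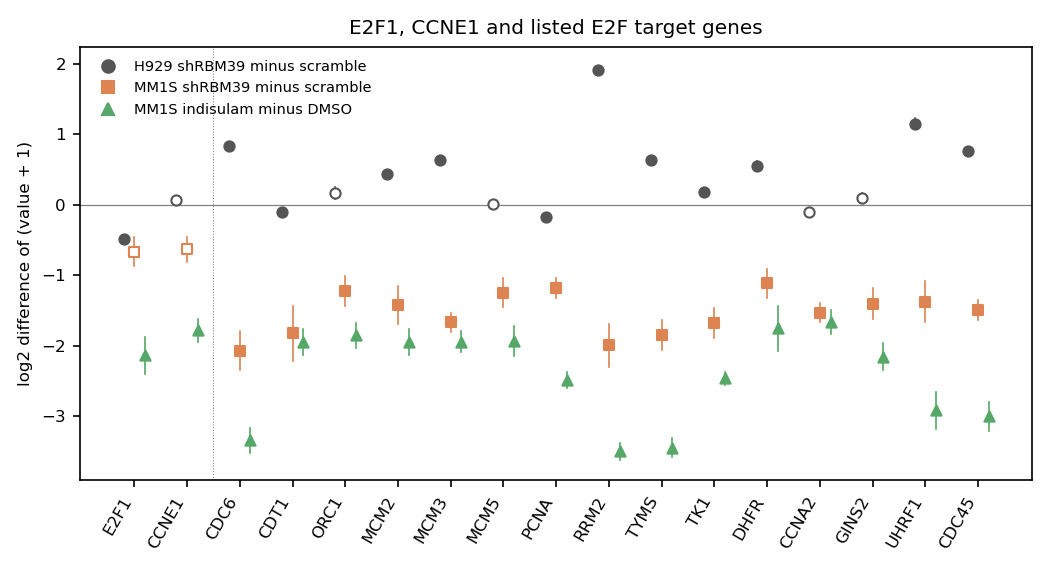
Log2 difference of E2F1, CCNE1 and the 15 listed E2F targets in each comparison, as circles for H929, squares for the MM1S knockdown and triangles for indisulam, with lines of 1 standard error. Filled symbols passed the test. All 15 targets lie below 0 in both MM1S comparisons, and most lie above 0 in H929, where RBM39 too was higher by label.

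The other cyclins, kinases and activators of G1-S were 7 genes. With indisulam 4 of the 6 tested fell (median -0.89), among them CDK2, the partner of cyclin E, from 33.9 to 9.59 TPM, CDC25A, the phosphatase that activates CDK2, from 7.12 to 1.30 TPM, and CCNH, a part of the CDK-activating kinase, from 26.98 to 14.3 TPM. Without any 1 DMSO library 2 of them were called. CCNE2, cyclin E2, fell from 11.6 to 2.91 TPM and CDK2 from 44.2 to 20.4 TPM in the MM1S knockdown, while the other 5 did not pass. In H929, the label shRBM39 went with higher levels for 3 and lower levels for 2, beside 24.1% and 48.1% of all genes tested. CDC25A averaged 11.7 FPKM with scramble and 6.94 FPKM with shRBM39, CDK2 19.8 and 24.3 FPKM, and CCNH 4.47 and 5.42 FPKM.

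Of 4 further CDK inhibitor genes, CDKN2D, which encodes the INK4 protein p19, was called lower in each comparison. It fell from 21.4 to 3.62 TPM with indisulam (log2 -2.28, SE 0.153, limma adjusted p = 1.57e-04) and from 9.06 to 4.29 TPM in the MM1S knockdown. In H929 it averaged 11.1 FPKM in the libraries labelled scramble and 9.55 FPKM in those labelled shRBM39, a call lost after median scaling and without scramble replicate 2. CDKN1C, p57, fell from 6.29 to 1.52 TPM with indisulam. CDKN2A was at 14.1 FPKM in the H929 libraries labelled scramble and below 1 TPM in the group means of MM1S, and CDKN2B was below 1 in all of these group means.

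Among 11 other pocket proteins, E2F and DP factors, 4 fell with indisulam and 0 rose. E2F2, an activator E2F, went from 31.4 to 4.46 TPM, TFDP1, the DNA-binding partner of E2Fs, from 81.6 to 26.8 TPM, and the repressor E2F8 from 8.21 to 2.38 TPM. None rose at an unadjusted p below 0.05 by limma either, but without indisulam replicate 3, 4 of them were called higher. In the MM1S knockdown 5 fell (median -0.69), with RBL1, the pocket protein p107, from 17.6 to 4.41 TPM, TFDP1 from 133.6 to 82.6 TPM and the repressor E2F7 from 23.0 to 11.3 TPM. In H929, 4 were higher and 6 lower, and 3 lower after median scaling. Over all genes tested in H929, 24.1% were called higher and 48.1% lower. E2F7 averaged 9.58 FPKM in the libraries labelled scramble and 4.13 FPKM in those labelled shRBM39, E2F3 10.1 and 5.65 FPKM, and E2F8 3.13 and 5.37 FPKM.

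MYBL2 encodes B-MYB, which joins the MuvB complex in S phase. It fell from 105.5 to 11.9 TPM with indisulam (log2 -3.05, SE 0.130, limma adjusted p = 4.36e-05) and from 159.4 to 32.3 TPM in the MM1S knockdown (log2 -2.27, limma adjusted p = 0.0116). Of the 6 genes of this list it was the only one called with indisulam, whereas in the knockdown LIN54, LIN9 and LIN52 fell too. In H929 MYBL2 averaged 190.0 FPKM in the libraries labelled scramble and 241.5 FPKM in those labelled shRBM39, and was higher there, as was the histone chaperone RBBP4, while LIN37 was lower. Of 7 ubiquitin ligase parts, 1 was called higher and 2 lower with indisulam, and 0 higher and 2 lower in the MM1S knockdown. By label, 2 were called higher and 4 lower in H929. CKS1B, the SKP2 cofactor for turnover of p27, fell from 322.6 to 94.7 TPM with indisulam and from 369.9 to 85.2 TPM in the MM1S knockdown. It was higher in the H929 libraries labelled shRBM39, at 112.6 against 68.0 FPKM. FBXW7, which marks cyclin E for destruction, rose from 9.43 to 26.5 TPM with indisulam, a call lost without any 1 library other than indisulam replicate 3. In H929 FBXW7 was lower under the label shRBM39, at 10.3 against 19.7 FPKM.

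A list of 8 other p53 targets held stress response genes known to be induced along with CDKN1A. Its medians had the same sign as the CDKN1A difference in all 3 comparisons, although CDKN1A did not pass in the MM1S knockdown. In H929, 7 were lower in the libraries labelled shRBM39 and 1 higher, with a median of -0.81. Over all genes tested there, 48.1% were called lower and 24.1% higher. BBC3, which encodes the death protein PUMA, averaged 17.6 and 3.64 FPKM, MDM2, a ubiquitin ligase, 136.5 and 50.9 FPKM, and ZMAT3, an RNA-binding protein, 7.76 and 2.75 FPKM. With indisulam 5 of the 7 tested rose and 0 fell, also at an unadjusted p below 0.05 by limma (median 0.91). CCNG1, cyclin G1, rose from 59.5 to 197.1 TPM, MDM2 from 81.5 to 264.6 TPM and BBC3 from 11.1 to 23.5 TPM. The count was 8 without indisulam replicate 3, and 3 without any 1 of the other 5 libraries. In the MM1S knockdown 3 of 8 rose, namely FAS, a death receptor gene (23.3 to 60.8 TPM), ZMAT3 (4.14 to 15.5 TPM) and BBC3 (7.46 to 26.1 TPM), and the median was 0.60. None of the 8 was called lower by limma, though 1 was lower at an unadjusted p below 0.05.

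Of 6 transcription factors known to act on D cyclin genes or CDKN1A, MYC fell from 163.3 to 99.6 TPM with indisulam (log2 -0.72, limma adjusted p = 0.00414). MAF, the CCND2 activator, rose from 101.5 to 242.7 TPM (log2 1.16, limma adjusted p = 0.0223), a call lost without any 1 library other than indisulam replicate 3. In the MM1S knockdown, where CCND2 fell, MAF was at 247.5 TPM with scramble and 541.3 TPM with shRBM39, which did not pass (log2 1.07, limma adjusted p = 0.0601), and none of the list was called. MAF in H929 was at 3.32 and 3.90 FPKM. In H929 FOXO3, a forkhead factor, was lower under the label shRBM39, at 12.1 against 17.5 FPKM.

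Ratios between members were taken within each library, as log2 ratios of (value + 1). The log2 ratio of CCND2 to CCND3 was 0.19, 0.34 and 0.37 in the H929 libraries labelled scramble and 1.92, 2.02 and 1.94 in those labelled shRBM39. It was 4.36 and 3.93 in MM1S scramble and 2.24 and 2.22 with shRBM39, so CCND2 exceeded CCND3 in every library of both lines. The difference was 1.66 in H929 (two-sided exact permutation p = 0.1) and -1.91 in the MM1S knockdown (exact permutation p = 0.333). These are the smallest p values that 3 against 3 and 2 against 2 libraries allow, so no ratio test here could reach 0.05. With indisulam the difference was 0.29 with overlap (exact permutation p = 0.4). The log2 ratio of CDK4 to CDK6 averaged 0.45 and 0.47 in H929, 2.33 and 2.41 in the MM1S knockdown, and 3.57 in DMSO against 2.72 with indisulam. The indisulam groups did not overlap (difference -0.85, exact permutation p = 0.1). The log2 ratio of CDKN1A to CDKN1B averaged 4.56 and 2.03 in H929 (difference -2.53, exact permutation p = 0.1) and -2.75 and -1.96 with indisulam (difference 0.79, exact permutation p = 0.1). In H929 p21 transcript was thus above p27 transcript in each library, and in the DMSO and indisulam libraries it was below. In the knockdown it averaged -0.09 and 0.15 with overlap. Of 9 such tests, 0 could pass after adjustment.

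**Figure D4:**
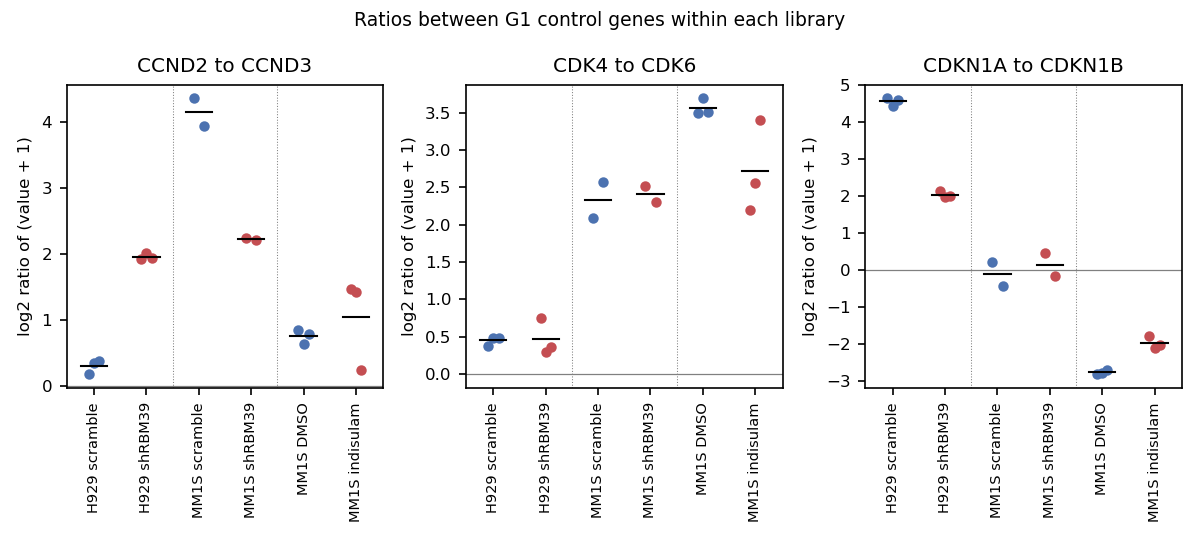
Log2 ratios of (value + 1) between pairs of members in each library, with blue points for control groups, red points for the other groups and bars for means. The CCND2 to CCND3 groups lie apart in H929 and in the MM1S knockdown in opposite directions, and the CDKN1A to CDKN1B groups lie apart in H929 and with indisulam.

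RIP asks which transcripts are recovered with the RBM39 protein, and each arm was 1 library, so there is no test. CDKN1B was at 153.2 FPKM with the RBM39 antibody and 72.3 FPKM with IgG, a log2 ratio of 1.07 on the scale of FPKM + 1. E2F1 was at 40.1 and 18.8 FPKM (1.05), and CCND3 at 29.6 and 14.1 FPKM (1.02). These 3 of the 9 members measured reached a log2 ratio of 1, as did 22.7% of 10966 genes, and they lay at the 79.5, 79 and 78.1 percentiles of all ratios. RB1 alone was at -1 or less, at 2.22 FPKM with the antibody and 11.4 FPKM with IgG (-1.94), where 23.9% of genes were. CCND2, the most abundant member in both RIP libraries, was at 307.9 and 300.3 FPKM (0.04), close to the median ratio of 0.02. CCNE1 had a log2 ratio of 0.50, CDK4 0.33, CDK6 0.24 and CDKN1A -0.06, within the quartiles of all genes of -0.95 and 0.90. CDKN2C was at 0.0515 and 0 FPKM, under the floor of 1 FPKM. RBM39's own transcript was at 62.1 and 126.5 FPKM.

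**Figure D5:**
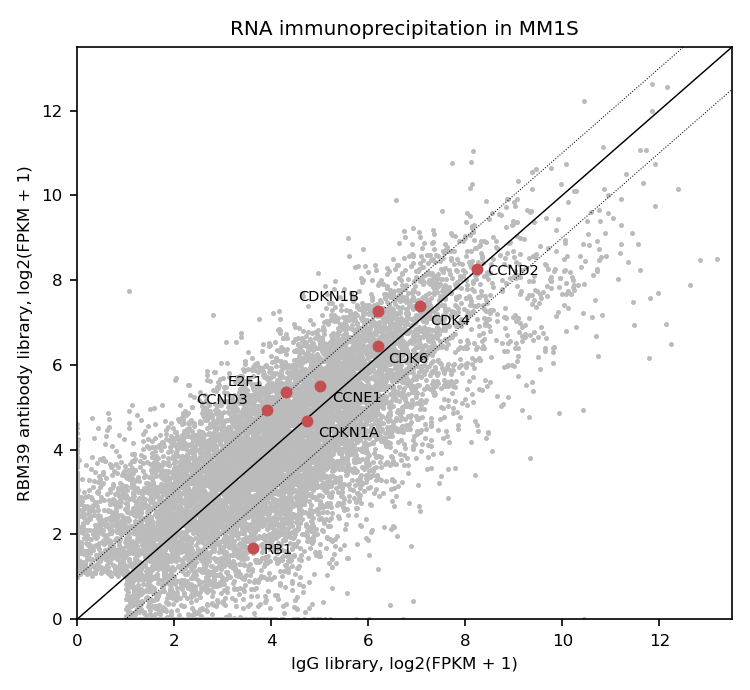
Level of each gene in the RBM39 antibody library against the IgG library, both as log2(FPKM + 1). Grey points are all genes that reach 1 FPKM in at least 1 of the 2 libraries, red points the 9 members measured, the solid line marks equal levels and dotted lines mark a log2 ratio of 1 either way. CDKN1B, E2F1 and CCND3 lie just above the upper line and RB1 below the lower line.

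Genes whose pattern was most like that of CCND2 or CDKN1A were found by Pearson's r over the 16 expression libraries, among 6465 genes. The 16 libraries share 6 groups and 3 separately normalized tables, so the values describe likeness and carry no test. For CCND2 they were TOP3A, a DNA topoisomerase (r = 0.992), WBP11, a splicing protein (0.979), PIP4K2A, a lipid kinase (0.976), HLTF, a DNA translocase (0.971), and RETSAT, a retinol saturase (0.969). For CDKN1A they were SH3BP2, an adaptor protein (0.990), STK40 (0.984), PDLIM3, a PDZ and LIM domain protein (0.982), UBE2QL1 (0.979), and DDOST, a subunit of the oligosaccharyl transferase (0.978). A high r does not mean changes of like size. In H929, the MM1S knockdown and indisulam, TOP3A differed by 0.32, -1.11 and -0.23 on the log2 scale, and CCND2 by 0.87, -2.47 and -0.56. SH3BP2 differed by -1.38, 0.16 and 0.33, and CDKN1A by -2.56, 0.49 and 0.71.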

How the data were processed

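RNA sequencing values of 16 libraries and RIP values of 2 libraries were used as deposited. Per the labels' protocols, TRIzol served for RNA extraction and a SMARTER mRNA kit for the libraries. Which aligner and counter were run, and whether strand was used, is not given in the sources used here. GRCm38 and mm10 are listed in the submitters' processing notes, although the cells are human, so no gene coordinates are taken from the files. The RIP columns are headed FPKM. The H929 column headers give no unit, and FPKM is taken from the authors' name for that table. Its columns sum to 374511 to 428099. The authors' names for both MM1S tables say FPKM, but each deposited column sums to the same total of 1000000 within rounding, so the values are TPM. The design allowed for either unit, and the test was kept. Sequencing depth is unknown, since these units carry no counts here, and no counting interval is given. Rows without a gene name (834 and 473, holding 0.436 to 0.459% and 0.174 to 0.237% of TPM) were left out, and 0 columns were unmatched.

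Each comparison was fitted within its table with limma 3.58.1 in R 4.3.3 (trend and robust, two-sided) on log2(value + 1), for genes that reached 1 in at least the smaller group's number of libraries, with Benjamini-Hochberg adjustment over all genes tested. The fit was tested on simulated data. Ratios had two-sided exact permutation tests in SciPy 1.17.1 (Python 3.11.15). The design text was the basis for reading "In" as indisulam. The named genes are the 10 members, RBM39, up to 3 called genes of each of 8 pathway lists by adjusted p, and the 5 genes most like CCND2 and CDKN1A. CCND1, CDKN2A, CDKN2B, LIN52, TSPAN31 and values of a listed gene given beside another comparison, were chosen after their values were seen. Some genes that this rule names are left out of the text. The members and lists were chosen with earlier results of these data known. Alternatives tried were median scaling and quantile normalization, other filters (none, or 5), 0.1 as the pseudocount, plain limma, the replicate number as a block, and each library left out. A crossed block was added after seeing the data.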

Additional observations from a re-analysis of the deposited data

Results flagged for a closer look

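For 3 genes every H929 library labelled shRBM39 moved one way from the libraries labelled scramble, while every MM1S shRBM39 library moved the other way from MM1S scramble. The difference between the lines was not tested, since the tables were normalized separately. Groups did not overlap, in either direction, for 74.7% of all genes tested in H929 and 62.4% in the MM1S knockdown. The share of all genes lying apart in opposite directions was not counted, so the 3 genes have no background to be set against. For CCND2 the log2 difference was 0.87 in H929 and -2.47 in MM1S, a gap of 3.35. For CDKN1A it was -2.56 in H929 and 0.49 in MM1S, a gap of -3.05. For CCNE1 it was 0.07 in H929 and -0.63 in MM1S, a gap of 0.70. Of these 6 differences, 3 passed limma's adjusted test (CCND2 in both lines and CDKN1A in H929). CDKN1A in MM1S lay apart only narrowly, with the highest scramble library at 76.03 TPM and the lowest shRBM39 library at 76.26 TPM. So did CCNE1 in H929, with the highest library labelled scramble at 8.30 FPKM and the lowest labelled shRBM39 at 8.39 FPKM. RBM39 averaged 37.5 FPKM under the H929 label shRBM39 and 4.50 FPKM under the label scramble, and 58.5 against 190.4 TPM in MM1S.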

How the results depend on the processing

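Depth is unknown, and with 2 or 3 libraries a group the MM1S knockdown calls are the least stable. Its count of 1461 genes became 0 with no filter on low values (4966 at an unadjusted p below 0.05 by limma), and 0 to 465 without a library. Same-numbered libraries did not deviate together (correlations 0.129, -0.00 and 0.025 in H929, -0.14 in the knockdown, 0.137, -0.15 and -0.03 with indisulam), so the numbers were not used as pairs. With a replicate block the counts were 7530, 255 and 3176 genes, and with crossed numbers 772 in the knockdown. The replicate block also ended the calls of RB1 in the knockdown (-1.08) and CDKN1A with indisulam (0.71), and no other call of a member. The indisulam count was 1849 to 9350 without a library.

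In the knockdown CCND2 lost its call with no filter (-2.47, adjusted p = 0.0698) and ranged from -2.71 to -2.24 without a library. RB1 lost its call at a pseudocount of 0.1 (-1.15), under median scaling (-1.04), quantile normalization (-1.04), no filter, no trend and the crossed block (-1.08), and ranged from -1.38 to -0.78 without a library. CDK4 ranged from -0.0078 to 0.55. In H929 median scaling gave -0.022 for CDK4, -0.040 for CDK6, 0.23 for CCNE1 (now called), 0.13 for CDKN1B (sign turned) and 0.030 for CCND1 (sign turned). Quantile normalization gave -0.10 for CDK6, 0.22 for CCNE1 (called) and 0.10 for CDKN1B. With no filter, and without trend and robust, CDK6 (-0.20) and RB1 (0.18) lost their calls. Without a library CDK6 ranged from -0.28 to -0.10, RB1 from 0.11 to 0.26 and CDKN1B from -0.076 to 0.0048. With indisulam CDKN1A lost its call with no filter (0.71) and CDKN1B was 0.16 under quantile normalization. Without a library CDKN1A ranged from 0.52 to 0.88, CDK6 from -0.022 to 0.46, CDKN1B from -0.18 to 0.068 and RB1 from -0.21 to 0.35. RBM39 ranged from -0.056 to 0.24. The CDK4 to CDK6 ratio difference ranged from -0.12 to 0.11 in H929 and from -0.16 to 0.32 in the knockdown, and that of CDKN1A to CDKN1B in the knockdown from -0.085 to 0.57. The RIP ratio of RB1 was -2.31 at a pseudocount of 0.1. Beyond the constructions named, the causes were not tested.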

Other observations

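The MM1S control groups of the 2 tables differed in several members. CCND2 averaged 375.2 TPM in the scramble libraries and 34.7 TPM in the DMSO libraries, a 10.8-fold gap, and 0.784% of 14668 genes had as large a gap in either direction. CDKN1A averaged 67.3 and 13.8 TPM (4.88-fold, as large in 2.91% of genes), and RB1 23.0 and 5.11 TPM (4.50-fold, 4.15%). CDK6 averaged 14.0 and 7.58 TPM (1.85-fold, 36.9%). CDK4 averaged 74.15 and 100.7 TPM, CDKN1B 71.6 and 98.6 TPM, and E2F1 26.4 and 35.3 TPM, each lower in the scramble libraries. CCND3, at 20.0 and 20.1 TPM, and CCNE1, at 20.6 and 21.3 TPM, were close. RBM39, which is not a member, averaged 190.4 and 187.6 TPM. In rank, CCND2 was the highest of the 10 genes in MM1S scramble, and in DMSO it was the fourth, below CDK4, CDKN1B and E2F1, with a range that overlapped that of E2F1. The tables were normalized separately and the controls differ in treatment, so the gaps are given as values, with no test. The CCND2 level with shRBM39, 65.9 TPM, lay above its DMSO level.

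In the H929 libraries labelled scramble, CDKN1A was the highest of the 10 genes at a mean of 747.8 FPKM, followed by CDKN2C at 186.4 FPKM, CDK4 at 69.8 FPKM and CDK6 at 50.9 FPKM, with no overlap between neighbours among these. In the libraries labelled shRBM39 CDKN2C came first at 229.7 FPKM and CDKN1A second at 126.3 FPKM. CCNE1 was the lowest member in both H929 groups, at 8.14 and 8.60 FPKM. In DMSO the highest were CDK4 at 100.7 TPM and CDKN1B at 98.6 TPM, which overlapped, and with indisulam CDKN1B at 94.2 TPM stood above CDK4 at 62.0 TPM without overlap.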
